A study of Homo sapiens with 15 samples.

Results

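From input extract into pelleted condensates, 10 mRNAs of the integrated stress response were followed: *ATF4*, *ATF5*, *DDIT3*, *PPP1R15A*, *PPP1R15B*, *TRIB3*, *CHAC1*, *ASNS*, *SESN2* and *XBP1*. They were listed by name, for a known upstream open reading frame (ORF) or for a place in the ATF4 pathway. The rule used no measured value, but earlier results of these data were known when the list was made. A count of 10 or more in 2 or more libraries of every group was required, which all 10 of the 10 listed mRNAs reached, and 16612 of the 57500 genes counted reached it too.

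In the integrated stress response, a kinase phosphorylates the translation initiation factor eIF2, which lowers protein synthesis in general. A small group of mRNAs, *ATF4* among them, carries upstream ORFs in the 5′ UTR and is translated better under these conditions. The ATF4 protein then switches on genes of amino acid supply, redox balance and cell death, among them genes for factors that remove the phosphate from eIF2. Stress granules, condensates of untranslated mRNAs and proteins such as G3BP1, form when initiation is blocked in this way.

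The libraries came from cytosolic extract of the human osteosarcoma line U2OS. Extract was kept for 2 h at 37 °C as an in vitro translation reaction, either untreated (mock), with 250 nM dsRNA (which activates the eIF2 kinase PKR), with 2 µg/ml silvestrol (which blocks the initiation helicase eIF4A without eIF2 phosphorylation) or with 1% PEG (polyethylene glycol, a molecular crowder), and its condensates were then pelleted. Input extract was not pelleted, and the labels give no incubation for it. The labels give the genotype of the cells as wild type in all 5 groups, whereas the methods of the study speak of condensates of YFP-G3BP1. Each group had 3 biological replicates, which makes 15 libraries of poly(A) RNA. In an extract without nuclei, a level reflects which mRNAs were present and pelleted, and not transcription during the reaction.

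Total counts per library ranged from 15341973 to 46939993, and those of the PEG pellets, at 15341973 to 25675182, lay below all others but input replicate 1. The 10 mRNAs together took 0.0759% to 0.142% of all counts. Of 9 osteoblast lineage markers, 5 passed the filter (*RUNX2*, *ALPL*, *SPP1*, *COL1A1* and *SPARC*), while *SP7*, *COL1A2*, *BGLAP* and *IBSP* did not. *IBSP* had 0 counts in all 3 input libraries. Of 6 markers of blood, epithelial and endothelial cells, only *EPCAM* passed, at 7.70, 10.6 and 11.7 CPM (each count scaled to the library's total) in input. Replicate 1 stood apart from replicates 2 and 3 in every group, and its values are given for the 10 mRNAs.

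Levels are given as CPM, scaled over the 15 libraries with the trimmed mean of M-values (TMM). Such values are relative: more of 1 mRNA in a pellet and less of the other RNAs there cannot be told apart. Fold changes come from edgeR's quasi-likelihood test on the 6 libraries of each comparison, with Benjamini-Hochberg adjustment over all 16612 genes and a call at an adjusted p-value under 0.05. Same-numbered libraries deviated together, most clearly those of replicate 1. A paired fit, which takes the replicate number as a block, is therefore printed wherever it changed a call. The pellet comparisons with input share the same 3 input libraries and are therefore not independent of each other.

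Among the transcription factors, *ATF4* lies at chr22:39519695-39522685, *ATF5* at chr19:49928702-49933935, *DDIT3* (which encodes CHOP) at chr12:57516588-57520517 and *XBP1* at chr22:28794555-28800597. The eIF2 phosphatase subunits are encoded by *PPP1R15A* (GADD34) at chr19:48872392-48876057 and *PPP1R15B* (CReP) at chr1:204403387-204411791. The pseudokinase gene *TRIB3* lies at chr20:362835-397559. The metabolic and redox genes are *CHAC1*, for a glutathione-degrading enzyme, at chr15:40952962-40956519, *ASNS*, for asparagine synthetase, at chr7:97852118-97872542, and *SESN2*, for an inhibitor of mTORC1 signalling, at chr1:28259527-28282491. Coordinates are those of the files, on GRCh38, and counts cover the exons of each gene.

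In 1 principal GENCODE transcript per gene, 8 of the 10 mRNAs had at least 1 upstream ATG in the 5′ UTR, against 51.7% of 13482 tested coding genes, and 7 had at least 2, against 30.6%. *ATF4* had 7, more than 95.1% of the genes. Among its upstream ORFs, 5 ended before the main start codon and 2 overlapped it. *DDIT3* and *TRIB3* had 3 each. *ATF5*, *PPP1R15A*, *PPP1R15B* and *ASNS* had 2 each, *SESN2* had 1, and *CHAC1* and *XBP1* had 0 in the transcripts used. An upstream ORF that overlaps the main start was found in *ATF4*, *ATF5* and *DDIT3*, 3 of the 10, against 16.8% of the genes. Part of the list was chosen for known upstream ORFs, so an excess over all genes was built in and describes the list only. Every ATG in the annotated 5′ UTR was counted, in any frame and context, and which transcript the extract holds was not measured. By the exon length of the files, *PPP1R15B* was the longest at 5227 nt and *DDIT3* the shortest at 1266 nt, and 8 of the 10 lay under the median of 4427 nt, with *ASNS* at 4455 nt just over it. GC content, of the longest transcript, ran from 41.5% in *XBP1* to 62.6% in *CHAC1*, beside a median of 48.8%.

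Input extract held far more *ATF4* mRNA than any other of these mRNAs. Per kb of exon, its mean level was 235 CPM, followed by *ASNS* at 33.7, *ATF5* at 26.2, *XBP1* at 15, *PPP1R15B* at 14.5, *TRIB3* at 12.3, *CHAC1* at 11.6, *PPP1R15A* at 10.2, *SESN2* at 9.33 and *DDIT3* at 6.57 CPM per kb. The libraries of neighbours in this order overlapped, except between *ATF4* and *ASNS* and between *ATF5* and *XBP1*. In PEG pellets, *ATF4* at 353 and *ASNS* at 85.1 CPM per kb again led. *CHAC1* at 28.0 and *DDIT3* at 24.5 CPM per kb had the next highest means there, and *PPP1R15B* had the lowest at 9.32. The PEG libraries of *CHAC1* and *DDIT3* overlapped each other and those of *XBP1* and *ATF5*. Those of *PPP1R15B* overlapped *SESN2*.

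**Figure D1:**
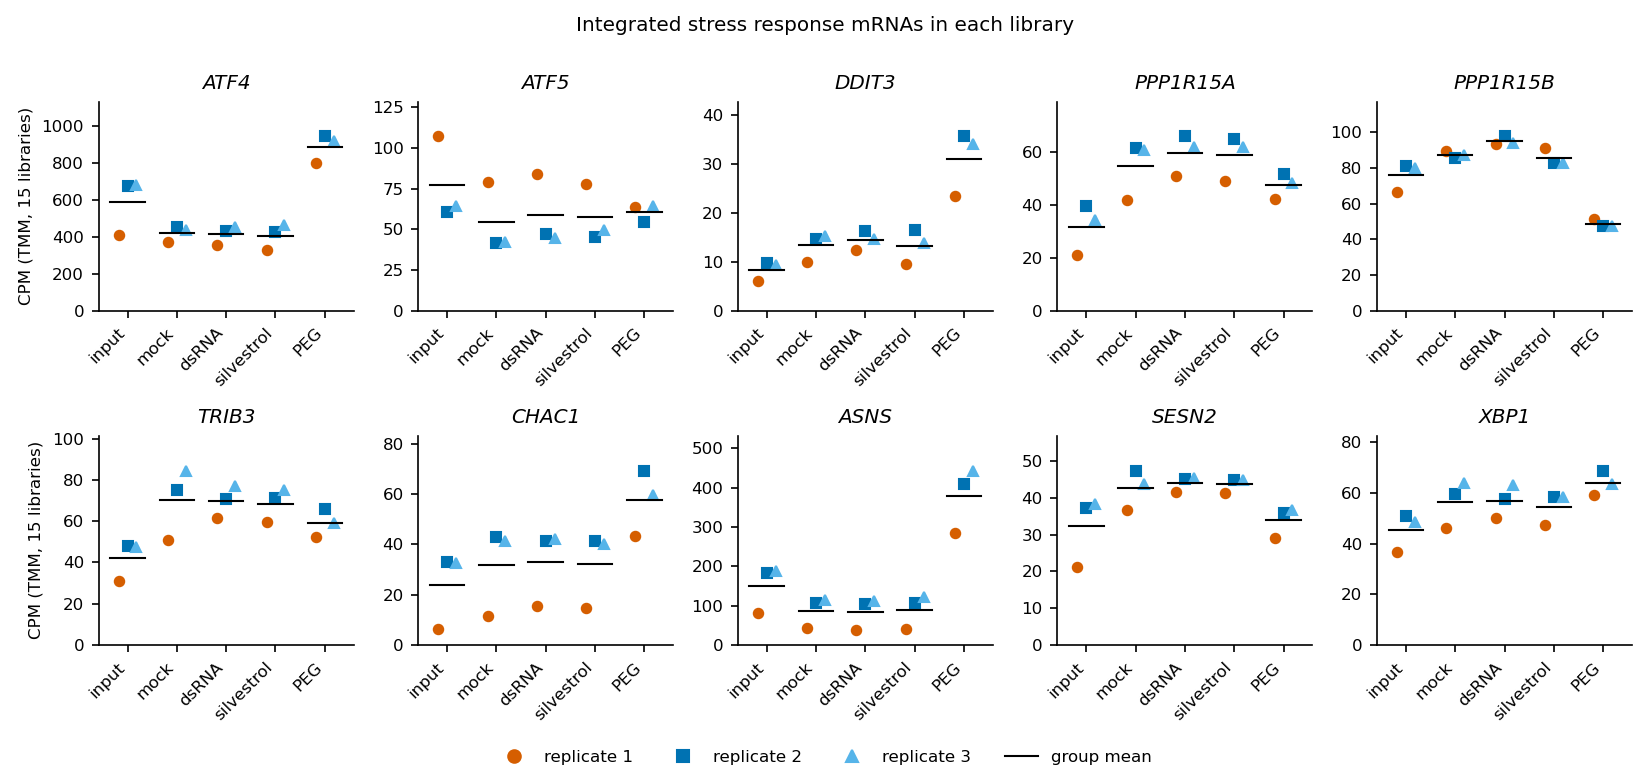
TMM-scaled CPM (linear axis from 0, with its own range in each panel) of the 10 mRNAs in the 15 libraries, with a symbol per replicate number and a line at the group mean. The PEG libraries of ATF4, DDIT3 and ASNS lie above all other libraries, those of PPP1R15B below them, and replicate 1 is the lowest library of every group for 8 of the 10 mRNAs.

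The mock pellet came from extract with no agent added, although the study describes a mild hypotonic stress, with eIF2α phosphorylation, from extract preparation itself. *PPP1R15A* and *TRIB3* were enriched over input, and no listed mRNA passed the test as depleted. *PPP1R15A* measured 21.1, 39.5 and 34.2 CPM in input replicates 1 to 3 and 41.7, 61.6 and 60.8 CPM in the mock pellet. Its highest input library lay just under the lowest pellet library, and the log2 fold change was 0.82 (SE 0.250, adjusted p = 0.0395, edgeR). *TRIB3* went from 31.2, 47.7 and 47.4 CPM in input to 50.6, 75.3 and 84.5 CPM in the pellet, with a log2 fold change of 0.77 (SE 0.232, adjusted p = 0.0386, edgeR). The call of *PPP1R15A* was lost without input replicate 1 or 3 or mock replicate 2 or 3, and that of *TRIB3* without any input replicate or mock replicate 2 or 3. The 2 enriched mRNAs of 10 compare with 17.6% of all tested genes called higher, and the 0 depleted with 15.8% called lower.

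Within each replicate number, all 10 mRNAs moved the same way in 3 of 3 pairs of mock pellet and input. How many of all genes did so was not counted. With the replicate block all 10 passed the test. Then 7 were enriched and 3 depleted, beside 32.5% of all genes called higher and 30.1% called lower in that fit. *DDIT3* rose from 5.97, 9.67 and 9.32 CPM to 9.94, 14.8 and 15.3 CPM (log2 fold change 0.71, SE 0.237, adjusted p = 0.0544 without the block and 6.54e-06 with it, edgeR). *PPP1R15B* read 66.4, 81.0 and 79.8 CPM in input and 89.6, 85.4 and 87.0 CPM in the pellet (log2 fold change 0.24, adjusted p = 0.142 without the block and 0.0228 with it, edgeR). Neither gene's pellet libraries overlapped input, but for *PPP1R15B* the pair of replicate 1 gave most of the difference, at 0.43 on the log2 scale against 0.08 and 0.12 in the others.

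*ATF4*, *ASNS* and *ATF5* were the depleted mRNAs. *ATF4* measured 410.4, 678 and 684 CPM in input and 373, 454 and 437 CPM in the mock pellet, so the pellet libraries overlapped only input replicate 1. The log2 fold change was -0.45 (SE 0.208, adjusted p = 0.130 without the block and 0.000794 with it, edgeR). *ASNS* read 80.2, 184 and 187 CPM in input and 43.0, 106 and 113 CPM in the pellet, and was lower within every pair, by -0.73 to -0.90 on the log2 scale (adjusted p = 0.206 without the block and 1.04e-07 with it, edgeR). *ATF5* read 107, 60.5 and 64.2 CPM in input and 79.1, 41.5 and 42.3 CPM in the pellet (log2 fold change -0.47, adjusted p = 0.281 without the block and 3.89e-05 with it, edgeR). For both genes the spread between replicate 1 and the other 2 was larger than the difference between the groups, which is where the fits part.

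The remaining 3 mRNAs were higher in the mock pellet within each pair, though their groups overlapped. *CHAC1* read 6.46, 32.8 and 32.5 CPM in input and 11.4, 43.1 and 41.5 CPM in the pellet (log2 fold change 0.44, SE 0.646, adjusted p = 0.628 without the block and 0.000133 with it, edgeR). *SESN2* went from 21.1, 37.1 and 38.4 CPM to 36.7, 47.4 and 43.7 CPM (0.43, adjusted p = 0.177 and 0.000445 with the block, edgeR). *XBP1*, whose mRNA is spliced by the endoplasmic reticulum sensor IRE1, went from 36.7, 51.0 and 48.4 CPM to 46.2, 59.6 and 63.8 CPM (0.35, adjusted p = 0.151 and 0.00121 with the block, edgeR).

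Several of these values changed in size when a GC offset was added, and what the offset removes was not tested. *CHAC1*, *TRIB3*, *ATF5*, *SESN2*, *PPP1R15A* and *ATF4*, in falling order from 62.6% to 56.7% GC, all had a GC content above that of 75.4% of tested genes or more. With a GC offset and the block, *CHAC1* fell to 0.05 (adjusted p = 0.601) and *SESN2* to 0.11 (adjusted p = 0.240) in the mock pellet, and neither was called. *TRIB3* went to 0.36 (adjusted p = 0.000756) and *PPP1R15A* to 0.52 (adjusted p = 1.8e-05), while *ATF4* went to -0.65 and *ATF5* to -0.86, all 4 still called by edgeR in that fit. Without the block, the GC offset ended the calls of *PPP1R15A* (0.51, adjusted p = 0.0999) and *TRIB3* (0.37, adjusted p = 0.163), while *ATF4* was called lower (-0.67, adjusted p = 0.0291) and *PPP1R15B* higher (0.41, adjusted p = 0.0405).

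The dsRNA pellet was also set against input. Without the block, 4 of the 10 mRNAs were enriched, beside 21.1% of all genes called higher, and 0 depleted, beside 19.6% called lower. *PPP1R15A* read 51.0, 65.9 and 61.8 CPM (log2 fold change 0.95, SE 0.226, adjusted p = 0.0125, edgeR). *DDIT3* read 12.5, 16.2 and 14.6 CPM (0.83, SE 0.206, adjusted p = 0.0149). *TRIB3* read 61.7, 70.8 and 76.9 CPM (0.77, SE 0.183, adjusted p = 0.0126).

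*PPP1R15B* was the fourth, at 93.5, 97.5 and 93.9 CPM with dsRNA (0.37, SE 0.120, adjusted p = 0.0410, edgeR). The call of *PPP1R15B* was lost without input or dsRNA replicate 2 or 3, that of *DDIT3* without dsRNA replicate 2 and that of *TRIB3* without dsRNA replicate 3. With the block the split was 7 enriched and 3 depleted, beside 31.0% and 29.1% of all genes. The depleted mRNAs were *ATF4* (357, 434 and 454 CPM, log2 fold change -0.44 with the block), *ATF5* (84.1, 47.2 and 45 CPM, -0.36) and *ASNS* (38.5, 105 and 112 CPM, -0.83), which were not called without it. The pellet libraries of dsRNA lay wholly above input for 5 of the 10, beside 26.3% of genes, and wholly below for 0, beside 28.9%. In mock these were 4 and 0 of the 10, beside 24.1% and 26.0%.

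In the silvestrol pellet, *PPP1R15A* (49.2, 64.9 and 62.1 CPM, log2 fold change 0.92, SE 0.228, adjusted p = 0.0161, edgeR) and *TRIB3* (59.3, 71.2 and 74.9 CPM, 0.73, SE 0.184, adjusted p = 0.0170) were enriched over input. Both calls were lost without silvestrol replicate 2 or 3. These 2 of 10 stood beside 19.4% of genes called higher, and the 0 depleted beside 18.1% called lower. With the block, 6 were enriched and 3 depleted, beside 30.8% and 28.7% of genes, and *PPP1R15B* (91.2, 82.9 and 82.8 CPM) was the mRNA left uncalled (0.21, adjusted p = 0.118). *ATF4*, at 328, 427 and 463 CPM, was again lower than input in 3 of 3 pairs (-0.49 with the block, adjusted p = 0.00301), as were *ASNS* (39.2, 108 and 121 CPM) and *ATF5* (77.7, 45.5 and 49.8 CPM). Libraries lay wholly above input for 4 of the 10, beside 25.7% of genes, and wholly below for 0, beside 27.8%.

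With the GC offset alone, the calls of *PPP1R15A* and *TRIB3* were lost in both of these pellets as well. *PPP1R15A* had an adjusted p of 0.0517 with dsRNA and 0.0508 with silvestrol there, and *TRIB3* 0.126 and 0.137, all from edgeR. *ATF4* was then called lower in both pellets (-0.73 and -0.75) and *XBP1* higher in both (0.61 and 0.52), and *PPP1R15B* gained a call with silvestrol (0.41, adjusted p = 0.0455). With the block and the offset both were called in both pellets, and *CHAC1* and *SESN2* in neither.

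**Figure D2:**
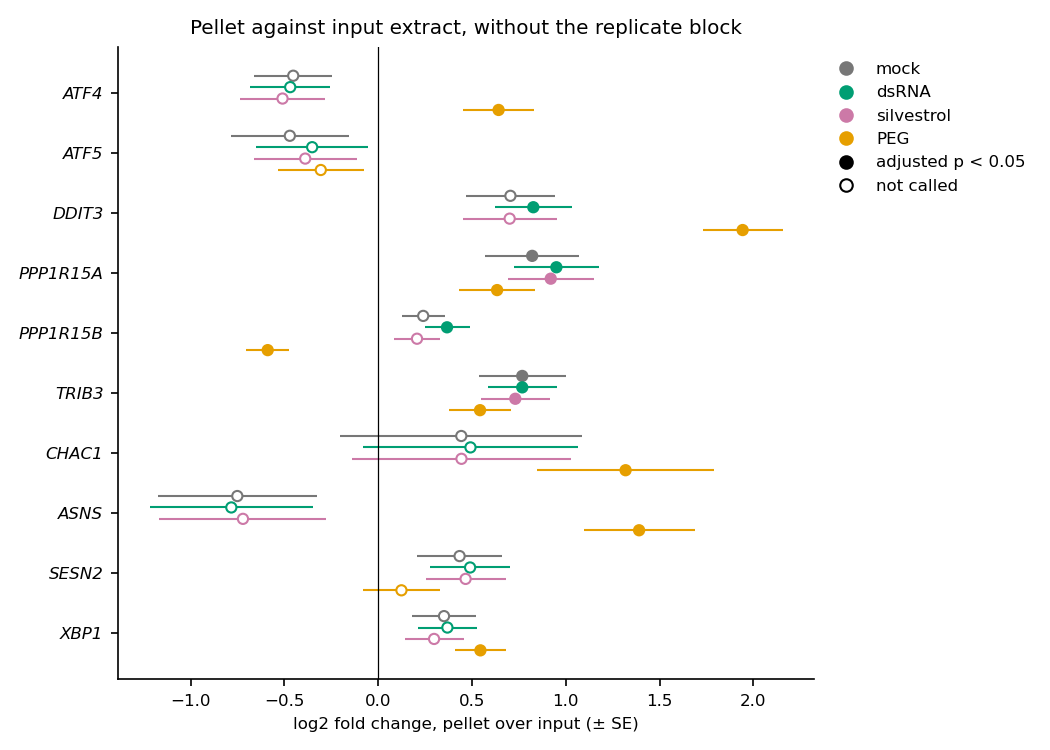
Log2 fold change of each pellet over input (horizontal axis, bars ± SE from edgeR without the replicate block) for the 10 mRNAs, with filled points at an adjusted p under 0.05. The mock, dsRNA and silvestrol points of each mRNA lie together, while PEG lies apart for ATF4, DDIT3, PPP1R15B, CHAC1 and ASNS.

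PEG pellets differed from this pattern. Of the 10 mRNAs, 7 were enriched over input and 1 was depleted, with and without the block, beside 25.5% of all genes called higher and 25.9% called lower without it, and 28.0% and 27.8% with it. Libraries did not overlap input for the same counts, 7 above and 1 below, beside 28.7% and 33.0% of genes. *DDIT3* had the largest rise of the 10, from 5.97, 9.67 and 9.32 CPM in input to 23.5, 35.6 and 34.0 CPM, and the pairs gave almost equal log2 ratios of 1.98, 1.88 and 1.87. Its fitted log2 fold change of 1.94 (SE 0.213, adjusted p = 0.000314, edgeR) was a 3.85-fold rise and lay above those of 99.6% of tested genes.

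*ASNS* and *ATF4* were enriched in PEG pellets. Along with *ATF5*, which was not enriched with PEG, they were the mRNAs called depleted in the other pellets with the block, though not without it. *ASNS* measured 284, 410.5 and 443 CPM with PEG, above every other library, with a log2 fold change of 1.39 over input (SE 0.296, adjusted p = 0.00452, edgeR). *ATF4* measured 799.9, 945 and 921 CPM, also above every other library (0.64, SE 0.190, adjusted p = 0.0200). *CHAC1* read 43.5, 69.4 and 59.7 CPM (1.32, SE 0.471, adjusted p = 0.0422). For *CHAC1* the pair of replicate 1 gave 2.75 on the log2 scale and the others 1.08 and 0.88, and the call was lost without any 1 of the PEG libraries, as well as in DESeq2 (adjusted p = 0.0831).

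*PPP1R15A*, *TRIB3* and *XBP1* were enriched in PEG pellets by 0.54 to 0.63 on the log2 scale. *PPP1R15A* read 42.1, 51.6 and 48.4 CPM (0.63, SE 0.201, adjusted p = 0.0264, edgeR), *TRIB3* 52.5, 66.1 and 59.2 CPM (0.54, SE 0.167, adjusted p = 0.0233) and *XBP1* 59.3, 68.8 and 63.7 CPM (0.54, SE 0.136, adjusted p = 0.00955). *PPP1R15B* was the depleted mRNA. Its 51.3, 47.6 and 47.2 CPM lay below all 12 other libraries, with a log2 fold change of -0.59 (SE 0.115, adjusted p = 0.00305, edgeR). The mRNAs of the stress-induced and the constitutive phosphatase subunit thus moved in opposite directions against input, with the limits on *PPP1R15A* given below, whereas against mock both fitted values were below 0.

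*ATF5* at 63.9, 54.3 and 64.5 CPM (-0.31, SE 0.230, adjusted p = 0.293, edgeR) and *SESN2* at 29.1, 35.8 and 36.6 CPM (0.12, SE 0.206, adjusted p = 0.640) did not pass the test against input, and their libraries overlapped. PEG values depend on the scaling. With library size alone, the median of all genes against input moved from -0.01 to -0.36, the calls of *ATF4* (0.28), *PPP1R15A* (0.27), *TRIB3* (0.18), *CHAC1* (0.93) and *XBP1* (0.19) were lost and *ATF5* (-0.63) became a depleted mRNA. The GC offset ended the calls of *ATF4* (0.40), *PPP1R15A* (0.38), *TRIB3* (0.25) and *CHAC1* (1.02). The calls of *ATF4*, *TRIB3* and *XBP1* were lost without PEG replicate 2 or 3, and that of *PPP1R15A* without any 1 PEG library. *DDIT3*, *ASNS* and *PPP1R15B* kept their calls in every alternative run.

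**Figure D3:**
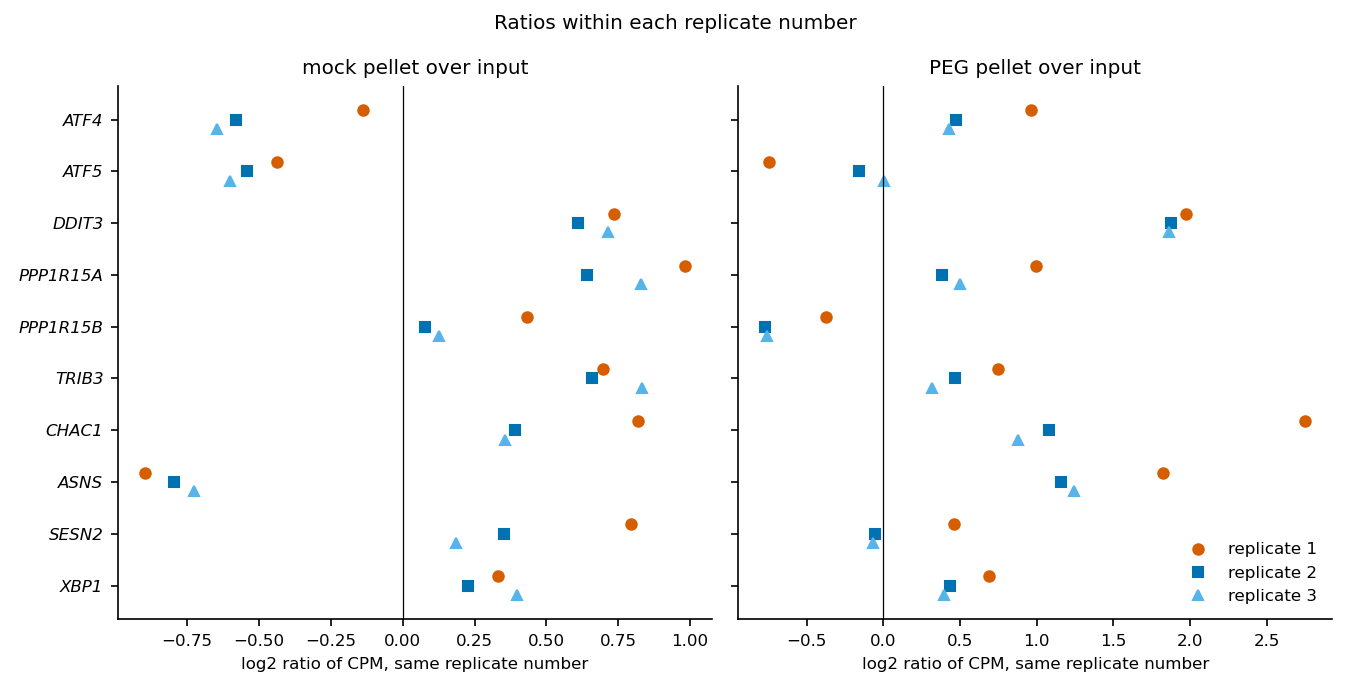
Log2 ratio of CPM between pellet and input of the same replicate number (horizontal axis), for mock on the left and PEG on the right. All 3 ratios of each mRNA lie on 1 side of 0 in mock, and replicate 1 gives the largest PEG ratio for CHAC1, at 2.75.

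Set directly against mock, PEG pellets held more *ASNS*, *DDIT3* and *ATF4* and less *PPP1R15B*. The fitted log2 fold change was 2.20 for *ASNS* (SE 0.318, adjusted p = 0.000208, edgeR), a 4.6-fold difference. It was 1.30 for *DDIT3* (SE 0.197, adjusted p = 0.000285) and 1.15 for *ATF4* (SE 0.135, adjusted p = 5.92e-05), with log2 ratios of 1.10, 1.06 and 1.08 in the 3 pairs of *ATF4*. *PPP1R15B* was lower by -0.77 (SE 0.109, adjusted p = 0.000190), with -0.81, -0.84 and -0.88 in the pairs. All 4 kept their call in every alternative run.

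These 3 higher and 1 lower of 10 stood beside 31.3% and 32.2% of all genes, and the 4 higher and 1 lower with the block beside 33.7% and 34.4%. The mRNA added by the block was *CHAC1* (0.93, adjusted p = 0.0598 without it and 1.09, adjusted p = 0.00187 with it, edgeR). Libraries of PEG lay wholly above mock for 4 of the 10, beside 32.0% of genes, and wholly below for 2, *PPP1R15B* and *SESN2*, beside 37.6%. *SESN2* (-0.25, adjusted p = 0.132), *PPP1R15A* (-0.13, adjusted p = 0.494), *TRIB3* (-0.16, adjusted p = 0.435), *XBP1* (0.25, adjusted p = 0.123) and *ATF5* (0.23, adjusted p = 0.426) did not pass. Mock replicate 1 decided several of these values. Without it, *ATF5* was called higher (0.63, adjusted p = 0.000562, edgeR), as was *CHAC1* (0.54, adjusted p = 0.0143), and *TRIB3* (-0.34), *PPP1R15A* (-0.28) and *SESN2* (-0.33) were called lower, while *ATF5* stood at 0.06 without mock replicate 2 and 0.07 without mock replicate 3. *CHAC1* was also called without mock replicate 2 (1.21) or 3 (1.16). With library size alone *SESN2*, *PPP1R15A* and *TRIB3* became lower calls (-0.73, -0.61 and -0.64), and the median of all genes moved from -0.03 to -0.50.

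No listed mRNA passed the test between the mock, dsRNA and silvestrol pellets, with or without the block. For dsRNA against mock, the log2 fold changes of the 10 ran from -0.03 to 0.12, for silvestrol against mock from -0.06 to 0.10 and for dsRNA against silvestrol from -0.07 to 0.15. DESeq2 called none of the 10 either. In the fit without the block, 0.0% of all genes were called in each direction in each of the 3 comparisons. Of the 16612 genes, 374, 35 and 330 had an unadjusted p under 0.05 (edgeR). Each of these numbers is smaller than that threshold would pass by chance alone. DESeq2 called 65 genes lower for dsRNA against mock, 0 for silvestrol against mock and 65 lower for dsRNA against silvestrol.

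The block narrowed the standard errors of the 10 from between 0.0859 and 0.545 to between 0.0611 and 0.0838 for dsRNA against mock. With it, 0.15% of all genes were higher and 2.65% lower for dsRNA against mock, 0.012% and 0.0% for silvestrol against mock, and 0.235% and 2.49% for dsRNA against silvestrol. The lowest adjusted p among the 10 was then 0.389, 0.774 and 0.191, and 1, 0 and 1 of them had an unadjusted p under 0.05. *PPP1R15B* came nearest to a call. Its dsRNA libraries, at 93.5, 97.5 and 93.9 CPM, lay wholly above those of mock and of silvestrol and were higher in 3 of 3 pairs of each. With the block and the GC offset it was called for dsRNA against silvestrol (0.18, SE 0.0498, adjusted p = 0.0345, edgeR) and not for dsRNA against mock (0.17, adjusted p = 0.0528). Libraries lay wholly above for 1 and wholly below for 0 of the 10 in dsRNA against mock, beside 2.17% and 4.44% of genes. These numbers were again 1 and 0 for dsRNA against silvestrol, beside 1.79% and 3.7%, and 0 and 0 for silvestrol against mock, beside 1.57% and 1.85%. An absent call does not show that levels were equal.

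**Figure D4:**
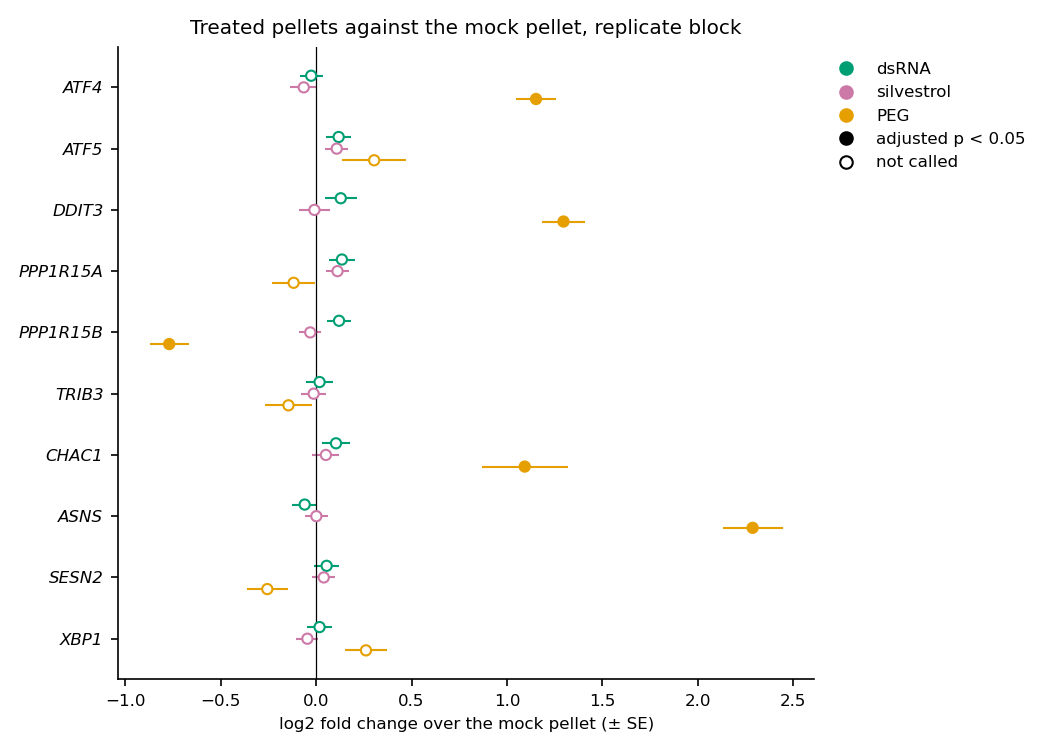
Log2 fold change of the dsRNA, silvestrol and PEG pellets over the mock pellet (horizontal axis, bars ± SE from edgeR with the replicate block), with filled points at an adjusted p under 0.05. The dsRNA and silvestrol points lie between -0.065 and 0.135 for all 10 mRNAs, while PEG reaches 2.29 for ASNS and -0.77 for PPP1R15B.

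Replicate 1 was the lowest library in all 5 groups for 8 of the 10 mRNAs, beside 14.8% of all genes, and the highest in all 5 for 0, beside 14.6%. The exceptions were *ATF5*, which was higher in replicate 1 than the mean of the other 2 in every group, and *PPP1R15B*, which changed sides. *CHAC1* had the widest gap of the 10 in input and mock, and *ASNS* in the other 3 groups. For *CHAC1*, the mean of replicates 2 and 3 was 5.05 times replicate 1 in input, 3.71 times in mock, 2.71 times with dsRNA, 2.80 times with silvestrol and 1.48 times with PEG. For *ASNS* the ratio was 2.31 in input, 2.54 to 2.91 in the mock, dsRNA and silvestrol pellets and 1.5 with PEG.

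For *ATF4* this ratio was 1.66 in input and 1.17 to 1.36 in the pellets. *ATF5* had ratios of 0.582 in input, 0.530 to 0.613 in mock, dsRNA and silvestrol and 0.930 with PEG. Of 39 other described ATF4 target mRNAs, 19 were also lowest in replicate 1 in all 5 groups and 1 was highest, whereas of the 12 mRNAs for eIF2 kinases, eIF2 and eIF2B, 0 were lowest and 5 highest. The labels do not say what same-numbered libraries share, and the part of replicate 1 in these results was not tested beyond the values without it. With replicate 1 left out of both groups, all 10 mRNAs kept the direction they had in mock pellets, and *ATF4* (-0.58), *ASNS* (-0.73) and *ATF5* (-0.54) were called lower there.

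The other genes of the pathway were read from lists chosen for their described role. Of 12 mRNAs for the eIF2 kinases, eIF2 and eIF2B, 5 were lower in mock pellets than in input and 0 higher, beside 15.8% and 17.6% of all genes. Their median log2 fold change was -0.21 beside 0.00 over all genes, and with the block 6 were lower and 1 higher, beside 30.1% and 32.5%. *EIF2AK1*, which encodes the haem-regulated kinase HRI, measured 379 ± 10.3 CPM (SD, n = 3) in input and 249.6 ± 6.27 in mock (-0.57, adjusted p = 0.00715, edgeR). *EIF2S1*, for the phosphorylated subunit eIF2α, measured 229.9 ± 91.2 and 114 ± 19.9 CPM (-0.98, adjusted p = 0.0292). Its replicate 1 was the highest library of every group, and in input the mean of replicates 2 and 3 stood at -0.92 against it (log2). With PEG, 5 of the 12 were higher and 3 lower than input, beside 25.5% and 25.9% of all genes (median -0.09 beside -0.01). With the block these were 5 and 4, beside 28.0% and 27.8%. Without the block, the higher ones included *EIF2S2* (1.19) and *EIF2B5* (0.83), and the lower ones were 3 kinase mRNAs. These were *EIF2AK1* (-0.84), *EIF2AK2* (-0.91) and *EIF2AK3*, for PERK (-0.62).

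*EIF2AK2* encodes PKR, the kinase that binds dsRNA, and its mRNA was lower in the dsRNA pellet than in mock and silvestrol pellets when replicates were paired. It measured 138 ± 30.2 CPM in input, 128 ± 4.25 in mock, 88.3 ± 5.95 with dsRNA, 121 ± 7.50 with silvestrol and 71.6 ± 12.7 with PEG (SD, n = 3). For dsRNA against mock the log2 fold change was -0.54 (SE 0.0915). It was not called without the block (adjusted p = 0.469, edgeR) and was called with it (adjusted p = 2.66e-08) and in DESeq2 (adjusted p = 4.14e-05). For dsRNA against silvestrol it was -0.45 (adjusted p = 0.605 without the block and 3.52e-07 with it), and for silvestrol against mock -0.08 (adjusted p = 0.814 with the block).

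With the block, the lists of 12, 39, 23 and 8 genes each held 1 gene lower with dsRNA than in mock, *EIF2AK2* included. Against silvestrol these numbers were 2, 1, 1 and 1. Over all genes, 2.65% were called lower against mock and 2.49% against silvestrol. Besides *EIF2AK2* they were *NARS1* (-0.41 against mock and -0.43 against silvestrol), *ATF6* (-0.29 and -0.26), *IBTK* (-0.29 and -0.28) and, against silvestrol alone, *EIF2S2* (-0.22). *NARS1* is named after its value was seen. In each list the number of genes called higher with dsRNA than with mock or silvestrol was 0.

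Among the 39 other ATF4 target mRNAs, 3 were higher and 9 lower in mock pellets without the block, beside 17.6% and 15.8% of all genes (median -0.11). With it these were 12 and 13, close to the 32.5% and 30.1% of all genes. With PEG, 14 were higher and 5 lower than input, beside 25.5% and 25.9% of all genes (median 0.23). With the block these were 16 and 5, beside 28.0% and 27.8%. *PHGDH*, for the first enzyme of serine synthesis, rose by 1.11 (adjusted p = 0.00242, edgeR), *CEBPB* by 1.09 (adjusted p = 0.00116) and *SLC3A2*, for a subunit of amino acid exchangers, by 1.00 (adjusted p = 0.00229). *SLC7A11*, for the cystine exchanger that pairs with the SLC3A2 protein, went the other way at -0.60 (adjusted p = 0.00497). In mock, *CEBPB* (0.50), *SLC3A2* (0.55), *DDIT4* (0.48) and *PSAT1* (-0.35) were called only with the block, and *CEBPB* turned to -0.095 with the block and the GC offset.

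Of 24 mRNAs of the ATF6 and XBP1 arms of the unfolded protein response, 23 passed the filter and *DERL3* did not. In mock pellets 6 were higher and 6 lower than input without the block, beside 17.6% and 15.8% of all genes (median 0.05). With the block these were 9 and 7, beside 32.5% and 30.1%. With PEG 12 were higher and 5 lower in both fits, beside 25.5% and 25.9% without the block (median 0.36) and 28.0% and 27.8% with it. *HSP90B1*, for the endoplasmic reticulum chaperone GRP94, rose from 330.3 ± 63.5 to 892 ± 90.6 CPM in mock (1.47, adjusted p = 0.00358, edgeR) and to 499.5 ± 93.6 CPM with PEG (0.64, adjusted p = 0.0229). *ERN1*, for IRE1 itself, was higher in mock (0.66, adjusted p = 0.00902), and *DNAJB9* was lower (-0.48, adjusted p = 0.0463). With PEG, *HERPUD1* (0.72) and *HSPA5*, for the chaperone BiP (0.44), were also higher.

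Of the 8 other mRNAs with described upstream ORFs, 1 was higher and 1 lower in mock pellets, beside 17.6% and 15.8% of all genes. With the block these were 2 and 2, beside 32.5% and 30.1%. With PEG 1 was higher and 3 lower, beside 25.5% and 25.9%, and *IBTK* was among the lower (-0.87, adjusted p = 0.0128, edgeR). With the block PEG gave 1 and 4, beside 28.0% and 27.8%. Of the 26 genes picked by name from these lists, 14 were called in neither fit for mock against input, with log2 fold changes between -0.19 and 0.20: *EIF2AK2*, *EIF2AK4*, *EIF2S3*, *EIF2B5*, *ATF3*, *STC2*, *SLC7A11*, *PHGDH*, *ATF6*, *HERPUD1*, *IFRD1*, *IBTK*, *SLC35A4* and *EPRS1*. For PEG, 9 were called in neither, between -0.39 and 0.32: *EIF2S1*, *EIF2S3*, *ATF3*, *STC2*, *ATF6*, *ERN1*, *DNAJB9*, *IFRD1* and *EPRS1*. For mock against input, *EIF2AK3*, *EIF2S2* and *HSPA5* were also called only with the block. For PEG against input, *EIF2AK4*, *DDIT4*, *PSAT1* and *SLC35A4* were called only with it. *EPRS1* and *CEBPB* stand in 2 of the lists.

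**Figure D5:**
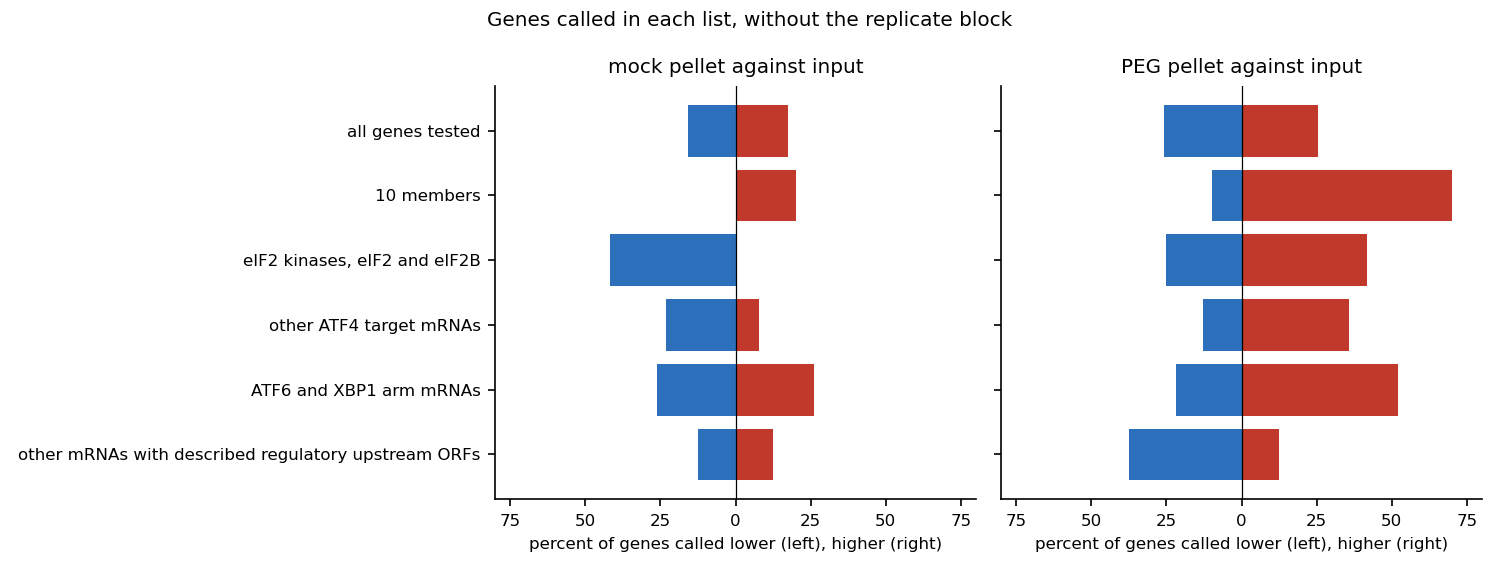
Percent of genes called lower (to the left) and higher (to the right) than input in mock and PEG pellets, for all genes tested, the 10 mRNAs and the 4 lists of related genes, from edgeR without the replicate block. In PEG pellets 7 of the 10 mRNAs are higher and 1 lower, and 12 and 5 of the 23 mRNAs of the ATF6 and XBP1 arms.

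Over the 15 libraries, the 10 mRNAs did not form a single pattern. The strongest correlations of log2 CPM between them were those of *PPP1R15A* with *TRIB3* (Pearson r = 0.97), *ATF4* with *ASNS* (r = 0.96) and *CHAC1* with *XBP1* (r = 0.93). The most negative were *ATF5* with *TRIB3* (r = -0.84) and *ATF4* with *PPP1R15B* (r = -0.83). The points share inputs, replicate numbers and groups, so these values are a description. Among all other tested genes, those most like *ATF4* were *ERCC1*, *NNMT* and *TMEM256* (r = 0.99 each). The gene most like each other mRNA was *HSPA14* for *ATF5*, *EFNA4* for *DDIT3*, *IGSF8* for *PPP1R15A*, *SSH1* for *PPP1R15B*, *KANK3* for *TRIB3*, *TMEM59L* for *CHAC1*, *AIG1* for *ASNS*, *ZER1* for *SESN2* and *KCNN4* for *XBP1*, with r from 0.97 to 1.00.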

How the data were processed

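Raw counts per gene were deposited by the authors for each of the 15 libraries, without normalisation. Per the labels' processing notes, the tools named are Trimmomatic 0.36, STAR 2.5.2b, featureCounts and Subread 1.5.2, with GRCh38. The strand setting is not given in the sources used here, so reads of overlapping and antisense genes could not be told apart. Of 57500 gene identifiers, 56898 were found in GENCODE release 29, which gave symbols, GC content and transcripts. Gene starts and ends matched it for 54742.

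A gene was kept where every one of the 5 conditions had 2 or more replicates with a count of 10 or more. Fits used edgeR 4.0.16 in R 4.3.3 (TMM, quasi-likelihood F test, a prior count of 2 for log CPM). The study's methods name DESeq2, which was run as an alternative (version 1.42.0). Other alternatives were DESeq2's size factors, library size only, no filter, 1 fit of all 5 groups, a GC offset (span 0.3), the replicate block with and without that offset, and each library left out. Library size with the block, and replicate 1 left out of both groups, were added after seeing the data. Fits were tested on simulated data.

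The labels number the biological replicates 1 to 3. Deviations from group means correlated at 0.131 to 0.861 between same-numbered libraries (30 pairs, median 0.54). Between others they correlated at -0.746 to 0.583 (60 pairs, median -0.24), and libraries were paired by number. Deviations within a group sum to 0, which in itself lowers the values between others. Replicates 2 and 3 were less clearly told apart. Input replicate 2 had 0.583 with mock replicates 2 and 3 alike, while mock replicate 2 had 0.649 with dsRNA replicate 2 and 0.539 with dsRNA replicate 3. The labels do not say what same-numbered libraries share.

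The members and lists were chosen with earlier results of these data known. Named genes were all members, 26 list genes set by name, and the genes with the highest Pearson correlation of log2 CPM with a member (3 for *ATF4*, 1 for each other). For each gene, the transcript with the best APPRIS rank, then support level, then length was used. Figures were drawn with matplotlib 3.10.9.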

Additional observations from a re-analysis of the deposited data

Results flagged for a closer look

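The enrichment of a pellet over input differed between PEG and mock for 4 of the 10 mRNAs. Of these, 3 were higher and 1 lower with PEG, beside 31.3% and 32.2% of all genes, so the count itself does not set the list apart. Since both pellets share the same input, the test of this difference is PEG against mock itself. The difference on the log2 scale was 2.20 for *ASNS*, 1.30 for *DDIT3*, 1.15 for *ATF4* and -0.77 for *PPP1R15B*. *ASNS* and *ATF4* lay below input in all 3 mock pairs and above it in all 3 PEG pairs, and *PPP1R15B* did the reverse.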

How the results depend on the processing

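With the replicate block, the counts of the 10 mRNAs called higher and lower than input stayed at 7 and 1 for PEG and moved in the other pellets. Mock gave 7 and 3, dsRNA 7 and 3 and silvestrol 6 and 3, and the same numbers came with library size only and the block. Of the 16612 genes, the block called 5404 higher and 5003 lower for mock and 5147 and 4839 for dsRNA. For silvestrol these were 5109 and 4764, and for PEG 4656 and 4624. Library size only with the block called 5856 and 4348 for mock, 5541 and 4419 for dsRNA and 5472 and 4271 for silvestrol. The block with the GC offset gave 5 and 3 for each of mock, dsRNA and silvestrol, and 6 and 2 for PEG. Of all genes, it called 5155 and 4926 for mock and 5222 and 5034 for dsRNA. For silvestrol it called 4940 and 4666, and for PEG 4333 and 4613. The GC offset alone gave 1 and 1 for mock, 3 and 1 for dsRNA, 2 and 1 for silvestrol and 3 and 1 for PEG. Of all genes, it called 2192 and 2340 for mock and 2705 and 2868 for dsRNA. For silvestrol it called 2378 and 2627, and for PEG 3938 and 4336. Without the filter, 3 were higher and 2 lower in each of mock, dsRNA and silvestrol. That fit called 2826 and 2997 of 37968 genes for mock and 3606 and 3567 of 37762 for dsRNA. For silvestrol it called 3423 and 3366 of 38144. With all 5 groups in 1 fit, 3 were higher in mock, 4 higher and 1 lower with dsRNA, and 3 higher and 1 lower with silvestrol. That fit gave 6 and 1 for PEG. Of all genes, it called 3251 and 3584 for mock and 3723 and 4194 for dsRNA. For silvestrol it called 3521 and 3856, and for PEG 4174 and 4977. For PEG, library size only gave 2 and 2 against input, 3 and 2 with the block added, and 4 lower against mock in both. Of all genes, it called 2337 and 6890 against input, and 2511 and 6843 with the block added. Against mock it called 8272 genes lower, and 8509 with the block. In dsRNA against silvestrol, the block with the GC offset called 1 mRNA higher, *PPP1R15B*, beside 93 of all genes.

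Directions turned as follows. With the GC offset, *CHAC1* was at -0.027 in silvestrol, *CEBPB* at -0.082 in mock (-0.095 with the block), *EIF2AK2* at 0.12 in silvestrol (0.13 with the block) and *SESN2* at -0.14 in PEG (-0.12 with the block). With library size only, *SESN2* was at -0.24 in PEG against input (-0.20 with the block), *ATF5* at -0.22 in PEG against mock (-0.16 with the block) and *XBP1* at -0.22 (-0.21 with the block).

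Leaving out libraries gave 0 to 6 higher and 1 to 3 lower mRNAs where the count moved in mock. In dsRNA these were 2 to 7 and 1 to 3, and in silvestrol 0 to 6 and 1 to 3. PEG had 2 to 5 higher against input where the count moved, and 4 to 5 higher and 3 to 4 lower against mock. Over all fits with libraries left out, 1335 to 5296 of all genes were higher in mock and 1017 to 5086 lower. In dsRNA these were 2360 to 5575 and 1960 to 5512, and in silvestrol 2148 to 5462 and 1711 to 5301. For PEG, 2944 to 5790 genes were higher against input, and 4662 to 6182 higher and 4194 to 6275 lower against mock. *CHAC1* ran from -0.013 to 0.844 in mock and from -0.013 to 0.789 in silvestrol, *EIF2AK2* from -0.302 to 0.015 in silvestrol, and in PEG against input *ATF5* ran from -0.469 to 0.038 and *SESN2* from -0.08 to 0.256. The calls of *PPP1R15A* and *TRIB3* in mock were lost without 4 and 5 of the 6 libraries. The causes were not tested.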
